A study of Mus musculus with 4 samples.

Results

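Oxidative phosphorylation is carried out in the inner mitochondrial membrane by complexes I to IV of the respiratory chain and by the ATP synthase, complex V. The genes described here are nuclear-encoded subunit genes that a rule on symbols picked. Subunits under other symbols, such as *Cyc1* and *Ndufab1*, are not among them. Members were taken by gene symbol alone, as the genes of the *Ndufa*, *Ndufb*, *Ndufc*, *Ndufs*, *Ndufv*, *Sdh*, *Uqcr*, *Cox4* to *Cox8* and *Atp5* series with a UMI (unique molecular identifier, 1 counted RNA molecule) in at least 100 of the deposited barcodes. Of the 31053 genes in the files, 84 matched by symbol and 81 of these had UMIs in enough barcodes, while *Cox8b*, *Cox8c* and a second entry named *Atp5o* did not. By symbol, 37 belong to complex I, 4 to complex II, 8 to complex III, 16 to complex IV and 16 to complex V. They lie on 19 chromosomes. Values per complex follow the symbol, so that *Ndufa4*, known as a complex IV subunit, is counted in complex I.

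The libraries are single-nucleus RNA-seq of the arcuate nucleus (ARC) of the mouse hypothalamus, which holds the AgRP and POMC neurons of energy balance. All mice were male C57BL/6J wildtypes of 10 weeks of age. DOCA-salt mice carried a subcutaneous pellet of deoxycorticosterone acetate (DOCA), a mineralocorticoid precursor of aldosterone, and had saline to drink beside water for 3 weeks, a treatment used as a model of hypertension with low circulating renin. Sham mice had surgery without the pellet. There were 2 DOCA-salt and 2 Sham libraries, each a pool of nuclei from 2 mice, so that n is 2 pools per group and the individual mice cannot be separated. The question asked was whether subunit RNAs, summed or singly, differed with the treatment and between the cell classes of the ARC.

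Complex I oxidises NADH, complex II oxidises succinate, complex III passes the electrons to cytochrome c and complex IV passes them to oxygen. The protons that complexes I, III and IV pump drive ATP synthesis by complex V. Complexes I, III, IV and V each also hold subunits made from the mitochondrial genome, whereas every subunit of complex II is nuclear-encoded. Some positions in complex IV and neighbouring proteins can be filled by alternative isoforms: COX4I2 can stand in for COX4I1 and NDUFA4L2 is a paralogue of NDUFA4, and both of these second isoforms are known from oxygen-sensing or hypoxic cells and from the mural cells (pericytes and smooth muscle) of blood vessels. Neurons of the brain are known for a high demand for oxidative ATP. In isolated nuclei these transcripts are those still in the nucleus together with cytoplasmic RNA carried along with it.

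Many genes of nuclear-encoded mitochondrial proteins are known targets of the nuclear respiratory factor NRF1. In the RefSeq promoter table (GRCm38.p6), 65 of the 81 members had at least 1 promoter, 70 promoters in all, and the 250 bases before each start were searched. The palindromic NRF1 letters GCGCATGCGC were found in 4 of the 65 members, which is 5.71% of member promoters, beside 0.782% of all 32851 promoters in the table. For comparison, the ETS letters CCGGAAGT, on either strand, were in 4.29% of member promoters and 2.88% of all, and the YY1 letters AAGATGGC in 1.43% and 1.56%. The 4 members with the NRF1 letters are shown because this was the motif whose share differed most between members and all promoters. Capitals mark the match, and the sequences are those upstream of the RefSeq starts of *Atp5g2* (chr15:102671048-102671297, minus strand), *Atp5k* (chr5:108434400-108434649, minus strand), *Cox6a1* (chr5:115348959-115349208, minus strand) and *Ndufa11* (chr17:56717512-56717761, plus strand), each ending at the base before that start. In the GENCODE gene models used for gene span below, the *Atp5g2* stretch lies within the gene (102662864 to 102672352). The stretches of *Atp5k* and *Cox6a1* run partly into their genes, whose upper ends are 108434448 and 115348981.
Atp5g2: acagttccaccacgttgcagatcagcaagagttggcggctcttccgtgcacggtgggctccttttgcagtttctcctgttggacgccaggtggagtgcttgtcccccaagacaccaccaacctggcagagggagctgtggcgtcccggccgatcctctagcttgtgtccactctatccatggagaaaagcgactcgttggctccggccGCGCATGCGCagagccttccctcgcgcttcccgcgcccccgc
Atp5k: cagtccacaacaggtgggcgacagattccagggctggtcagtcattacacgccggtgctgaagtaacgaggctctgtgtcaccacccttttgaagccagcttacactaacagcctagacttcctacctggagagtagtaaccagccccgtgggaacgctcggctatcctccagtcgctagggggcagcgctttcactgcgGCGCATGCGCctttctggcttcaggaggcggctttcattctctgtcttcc
Cox6a1: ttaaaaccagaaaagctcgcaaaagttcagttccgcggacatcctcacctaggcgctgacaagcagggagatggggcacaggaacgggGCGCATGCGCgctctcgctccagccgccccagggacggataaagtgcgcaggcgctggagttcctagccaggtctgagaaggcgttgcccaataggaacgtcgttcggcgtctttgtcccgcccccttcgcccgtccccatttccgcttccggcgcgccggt
Ndufa11: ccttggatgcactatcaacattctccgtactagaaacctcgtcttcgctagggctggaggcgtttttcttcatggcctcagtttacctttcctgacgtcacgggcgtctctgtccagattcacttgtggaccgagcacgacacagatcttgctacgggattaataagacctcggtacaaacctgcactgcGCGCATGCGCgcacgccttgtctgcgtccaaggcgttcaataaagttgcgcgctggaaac
The 4 genes encode a subunit of the ATP synthase membrane ring, the ATP synthase e subunit, a complex IV subunit and an accessory subunit of complex I. Their levels in DOCA-salt 1, DOCA-salt 2, Sham 1 and Sham 2, as CPM (UMIs of the gene per 1000000 UMIs of the kept nuclei), were 125, 200, 130 and 134 for *Atp5g2*. They were 269, 351, 402 and 309 for *Atp5k*, 140, 221, 193 and 165 for *Cox6a1*, and 147, 266, 183 and 157 for *Ndufa11*. DOCA-salt 2 was the highest library for 3 of the 4, and Sham 1 for *Atp5k*.

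Depth and library make-up differed between the libraries before any comparison of treatments. The deposited tables held 45126915 to 79437196 UMIs, and 2203 to 18907 nuclei per library passed the limits on genes, UMIs and mitochondrial share, with medians of 2401 to 8215 UMIs per nucleus. Libraries shared 5 to 49 barcodes per pair. DOCA-salt 2 stood apart: *Agrp* was at 209, 1.57, 52.1 and 86.2 CPM and *Pomc* at 348, 38.4, 174 and 303 CPM in DOCA-salt 1, DOCA-salt 2, Sham 1 and Sham 2, so that these defining ARC markers were lowest there. *Npy* (238, 14.4, 126 and 216 CPM) and *Ghrh* (79.6, 17.7, 32.4 and 57.8 CPM) were lowest there too, while *Tac2* (72.2, 67.7, 62.2 and 70.1 CPM) and *Sst* (349, 296, 190 and 292 CPM) were not. *Slc6a3* was also lowest there (13.9, 1.50, 5.98 and 5.79 CPM), but *Th* was not (11.1, 8.14, 7.10 and 13.9 CPM). *Cartpt* went the other way and was highest in DOCA-salt 2 (342, 382, 157 and 244 CPM). By the marker gates described below, tanycytes were 1.01%, 0.0317%, 0.363% and 0.593% of kept nuclei in the same order, lowest in DOCA-salt 2. Ependymal cells were highest in DOCA-salt 2 (0.0485%, 0.264%, 0.0908% and 0.0387%). Whether this pool holds the same part of the hypothalamus as the others is not known, and a difference in tissue and an effect of DOCA-salt cannot be told apart in it. The summed share of 6 nuclear long non-coding RNAs was also lowest in it (6.06%, 3.38%, 5.25% and 5.52%), and the share of 13 mitochondrially encoded genes was highest (5.05%, 6.22%, 5.39% and 5.85%). Erythrocyte genes were at 0.00986% and 0.0176% of UMIs in the DOCA-salt and 0.0265% and 0.0393% in the Sham libraries, and the part of these differences in the results below was not tested. Summed levels, treatment counts and class calls of the members are therefore also given without DOCA-salt 2.

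All 81 subunit genes together took 1.54% and 2.39% of UMIs in DOCA-salt 1 and 2 and 1.85% and 1.54% in Sham 1 and 2. The DOCA-salt libraries thus held both the highest share and one level with the lowest, and the groups overlapped. As summed CPM this was 19658 ± 5972 under DOCA-salt and 16932 ± 2153 in Sham (SD, n = 2 pools each), a log2 ratio of 0.22 that the exact two-sided permutation test did not separate from 0 (p = 0.667, where 2 against 2 cannot go below 0.33). Without DOCA-salt 2 the log2 ratio was −0.13, and without DOCA-salt 1 it was 0.50, so 1 library decided its direction. In sums over whole libraries, fewer nuclei of a type and less RNA per nucleus cannot be told apart.

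**Figure D1:**
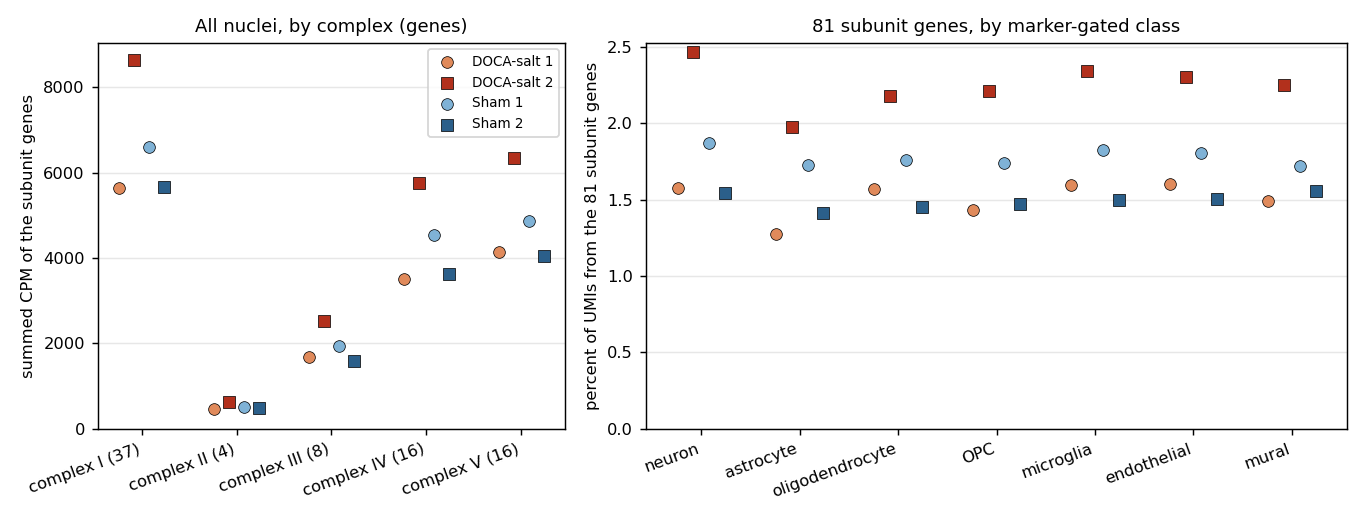
Summed level of the nuclear-encoded subunits in each library. Left, summed CPM of the members of each complex over all kept nuclei; right, percent of UMIs from the 81 genes in each marker-gated class, with 1 point per library. DOCA-salt 2 is the highest point for every complex (complex I 0.863% of UMIs against 0.564% to 0.659% in the other libraries), and Sham 1 is the next.

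DOCA-salt 2 was the highest library and Sham 1 the next in every complex. Complex I members took 0.564%, 0.863%, 0.659% and 0.565% of UMIs in DOCA-salt 1, DOCA-salt 2, Sham 1 and Sham 2, complex IV members 0.352%, 0.577%, 0.455% and 0.363%, and complex V members 0.413%, 0.633%, 0.486% and 0.404%. Complex III was at 0.168%, 0.252%, 0.195% and 0.160%. Complex II, the succinate dehydrogenase that is also an enzyme of the TCA cycle, was the least spread, at 0.0472%, 0.0626%, 0.0505% and 0.0487%. DOCA-salt 2 exceeded DOCA-salt 1 by 1.53-fold in complex I, 1.33-fold in II, 1.50-fold in III, 1.64-fold in IV and 1.53-fold in V. Between treatments the log2 ratios were 0.22, 0.15, 0.25, 0.18 and 0.23 for complexes I to V, with exact permutation p of 1, 1, 0.667, 1 and 0.667 (2 pools per group). Without DOCA-salt 2 they were −0.12, −0.072, −0.077, −0.22 and −0.11.

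Gene by gene, DOCA-salt 2 was the highest library for 73 of the 81 members. It was above DOCA-salt 1 for 78 of them, the exceptions being *Cox6a2*, *Cox7b2* and *Atp5s* (at 13.8 CPM in both), with a median fold of 1.54. On the log2 scale that median was 0.62, beside −0.07 over 15201 genes and 0.33 over the cytoplasmic ribosomal proteins. The Sham libraries differed as well, in the same direction for most genes: Sham 2 was below Sham 1 for 74 members, with a median fold of 0.862. The spread between libraries of 1 group was thus shared by nearly the whole set and was larger than the median difference between the groups.

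**Figure D2:**
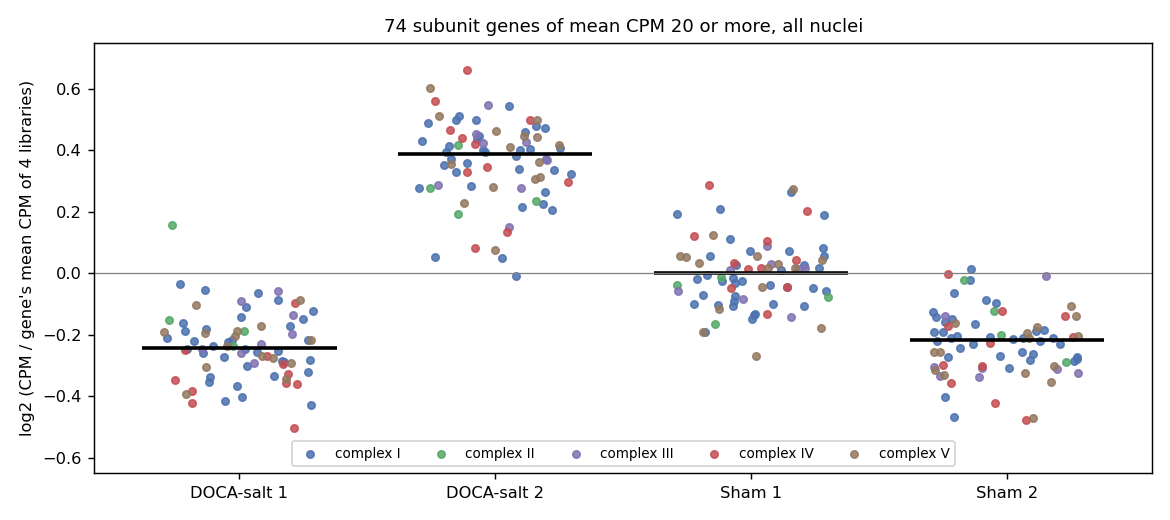
Level of each subunit gene in each library, as log2 of its CPM over its own mean of the 4 libraries, for the 74 members with a mean of at least 20 CPM. Each point is a gene and each black line the median of a library, at −0.24 and 0.39 for the first and second DOCA-salt pool and 0.00158 and −0.22 for the first and second Sham pool, so that the 2 DOCA-salt libraries lie on opposite sides of Sham 1.

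The members with most UMIs show the pattern. These are counts of RNA molecules tagged at the 3′ end, not divided by transcript length. *Cox8a*, a small structural subunit of complex IV, was at 617, 1038, 711 and 573 CPM in DOCA-salt 1, DOCA-salt 2, Sham 1 and Sham 2. The usual COX4 isoform *Cox4i1* was at 532, 894, 674 and 570 CPM and *Cox6c* at 512, 785, 671 and 501 CPM. *Atp5b*, the catalytic β subunit of the ATP synthase, was at 439, 716, 467 and 403 CPM. For these 4 genes DOCA-salt 2 was highest, and DOCA-salt 1 and Sham 2 both lay below Sham 1. *Ndufa4*, which is named for complex I but is known as a complex IV subunit, was at 480, 771, 483 and 383 CPM. Here DOCA-salt 1 lay next to Sham 1.

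Subunits did not all move with the library to the same degree. *Ndufs1*, the iron-sulfur subunit at the entry of electrons into complex I, was at 91.1, 98.7, 100 and 91.1 CPM, and all 4 libraries lay together. *Sdha*, the flavoprotein of complex II, was at 225, 285, 243 and 246 CPM, and the complex III core subunit *Uqcrc2* at 115, 136, 118 and 122 CPM. By contrast *Cox5a*, a subunit on the matrix side of complex IV, was at 201, 405, 233 and 184 CPM, and *Cox5b* at 337, 650, 445 and 329 CPM. For both, DOCA-salt 2 was far above every other library. *Atp5a1*, the α subunit of the ATP synthase, was between these at 392, 557, 454 and 392 CPM, and *Atp5c1*, its rotor γ subunit, at 177, 220, 193 and 163 CPM. The complex I core subunits *Ndufv2*, *Ndufs7* and *Ndufs8*, *Sdhb* of complex II and *Uqcrc1* of complex III had mean levels of 72.3 to 194 CPM, and DOCA-salt 2 was the highest library for each.

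The members with fewest UMIs were second isoforms and tissue-restricted subunits. *Cox7b2* was at 1.10, 0.663, 1.32 and 0.911 CPM in DOCA-salt 1, DOCA-salt 2, Sham 1 and Sham 2, *Cox4i2* at 0.964, 1.51, 1.22 and 1.49 CPM and *Cox6b2* at 2.16, 3.37, 3.25 and 2.88 CPM. *Ndufa4l2* was at 1.92, 4.38, 2.63 and 1.95 CPM. *Cox7a1*, the heart and muscle form of COX7A, was at 1.23, 4.38, 2.87 and 2.28 CPM, whereas its broadly expressed partner *Cox7a2* was at 219, 387, 287 and 228 CPM. Likewise *Cox6b1* was at 204, 370, 281 and 236 CPM. Of the 3 genes that encode the same mature ring subunit of the ATP synthase, *Atp5g1* was at 248, 411, 252 and 241 CPM and *Atp5g3* at 285, 474, 362 and 273 CPM, with *Atp5g2* as given above.

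No subunit gene passed the test for DOCA-salt against Sham in whole libraries. Of 81 members, 0 were called at a false discovery rate (FDR) under 0.05 by edgeR's quasi-likelihood test, where the background was 0% (0 of 16564 genes tested), and DESeq2 also called 0 members. At an unadjusted p under 0.05 edgeR had 1 member and DESeq2 1, beside 8.45% of all genes by edgeR. The fitted log2 fold change was above 0 for 68 of 81 members, with a median of 0.17 beside 0.03 over all genes tested and a range of −0.39 to 0.63. By complex the medians were 0.19, 0.16, 0.23, 0.11 and 0.18 for I to V. Without DOCA-salt 2 the median over members was −0.21, with 0 called.

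A few subunits had both DOCA-salt pools on 1 side of both Sham pools. This held above Sham for 6 members (26.6% of all genes) and below Sham for 1 (16.3% of all genes). *Atp5d*, the δ subunit in the central stalk of the ATP synthase (chromosome 10, 80138632 to 80145818, GRCm38), had 302 and 493 CPM in the DOCA-salt pools versus 269 and 234 CPM in the Sham pools, a log2 fold change of 0.63 (SE 0.29, edgeR FDR 0.607). *Ndufv1*, which holds the NADH-binding flavin of complex I (chromosome 19, 4007384 to 4012806), was at 143 and 216 CPM against 133 and 115 CPM (0.50, SE 0.26, edgeR FDR 0.636). *Sdhd*, a membrane anchor of complex II (chromosome 9, 50596357 to 50603812), was at 50.6 and 53.3 CPM against 40.4 and 37.1 CPM (0.38, SE 0.15, edgeR FDR 0.579). Of these 3, *Sdhd* had DOCA-salt pools closest to each other, and it was the member with an unadjusted p under 0.05.

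The remaining genes with groups apart had smaller differences. *Ndufs3*, a core subunit of complex I, had 110 and 150 CPM in the DOCA-salt pools versus 103 and 94.0 CPM in the Sham pools (log2 fold change 0.37). *Uqcrfs1*, the Rieske iron-sulfur protein of complex III, was at 98.3 and 132 CPM against 96.4 and 82.5 CPM (0.33), and *Ndufs4*, an accessory subunit whose loss is known to cause Leigh syndrome, was at 99.5 and 124 CPM against 94.9 and 89.4 CPM (0.24). *Ndufa10* (chromosome 1, 92439010 to 92473860) lay the other way, at 136 and 147 CPM against 160 and 150 CPM (−0.17, SE 0.17, edgeR FDR 0.778). For *Sdhd* the nearest pools of the 2 groups lay farther apart than the DOCA-salt pools did, and for the other 6 they lay closer.

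Which DOCA-salt pool was kept changed the number called. Without DOCA-salt 1, 5 members were called higher in whole libraries (1.42% of all genes were called higher): *Atp5d* (log2 fold change 0.96, edgeR FDR 0.037), *Atp5g1* (0.73), *Cox5a* (0.95), *Ndufv1* (0.80) and *Uqcrb* (0.77), and in neurons 22 were (3.41% of all genes). Without DOCA-salt 2, 0 were called in either. In astrocytes without DOCA-salt 2, *Ndufa3* and *Ndufc1*, accessory subunits of complex I, were instead called lower (−1.14 each; 0.531% of all genes were called lower). Each such fit has 1 DOCA-salt pool, which is assumed to vary as the Sham pools do.

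The higher level of subunit RNA in DOCA-salt 2 was present at every depth and mitochondrial share examined. In nuclei grouped by UMIs, from under 1000 to 8000 or more, the members took 2.27% to 2.59% of UMIs in DOCA-salt 2, against 1.43% to 1.68% in the other DOCA-salt pool and 1.69% to 1.91% and 1.44% to 1.83% in the Sham pools. The lowest Sham 1 value came from the 12 nuclei of that library under 1000 UMIs. Nuclei were also split into 3 equal groups by mitochondrially encoded share. From lowest to highest, members took 2.41%, 2.40% and 2.34% of UMIs in DOCA-salt 2 and 1.51%, 1.54% and 1.61% in DOCA-salt 1. Within each of the 3 groups DOCA-salt 2 was above the other 3 libraries.

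Gene span moved with the difference between libraries. Among genes with at least 50 CPM, the 73 members had a median span of 7674 bases with 4 exons, and the 4547 other genes 32199 bases with 9 exons. From the bin of shortest to that of longest span, the median log2 ratio of DOCA-salt 2 over DOCA-salt 1 in the other genes went from 0.35 through 0.20, 0.07, −0.04 and −0.19 to −0.29. In the 4 shortest bins (under 5, 10, 20 and 50 kb) it was 0.66 (23 genes), 0.70 (27), 0.57 (13) and 0.34 (9) for the members, so that they lay above other genes of like span in each, and the bin of 100 kb or more held 1 member, at 0.32. For Sham 1 over Sham 2 the members were at 0.33, 0.22, 0.15 and 0.14, while the other genes stayed between −0.05 and 0.02. The part of gene span in the library difference was not tested beyond these values.

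**Figure D3:**
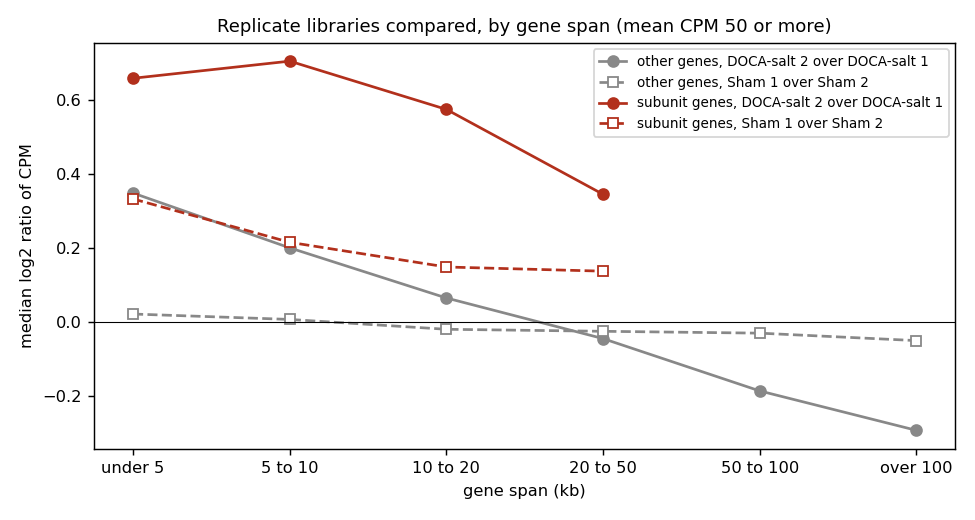
Median log2 ratio between libraries of 1 group by the span of the gene in the genome, for genes of at least 50 CPM. Lines join the bins for the subunit genes and for all other genes, for DOCA-salt 2 over DOCA-salt 1 and for Sham 1 over Sham 2, and the members lie above the other genes in each of the 4 shortest bins (0.66 against 0.35 in the shortest for DOCA-salt).

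Nuclei were next gated by marker genes into neurons (5495, 9821, 1389 and 4249 nuclei in DOCA-salt 1, DOCA-salt 2, Sham 1 and Sham 2), astrocytes (473, 793, 60, 228), oligodendrocytes (327, 1222, 115, 551), oligodendrocyte precursors (OPCs; 170, 290, 52, 148), microglia (183, 299, 58, 164), endothelial cells (72, 189, 33, 74) and mural cells (40, 194, 25, 82). RNA of neurons was present in every class: the 9 neuronal markers in sum reached 0.469 to 0.573 of their level in neurons in astrocytes and 0.748 to 0.912 in microglia, with the other classes between. A level given for a class can therefore include free RNA of other nuclei. DOCA-salt 2 was the highest library for 73 of 81 members in neurons, 57 in astrocytes, 64 in oligodendrocytes, 68 in OPCs, 66 in microglia, 66 in endothelial cells and 65 in mural cells. The library difference was thus seen in every class.

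Within classes, too, 0 members were called between DOCA-salt and Sham by edgeR, and DESeq2 called 0. Members tested numbered 81 in neurons, 74 in astrocytes, 76 in oligodendrocytes, 75 in OPCs, 76 in microglia, 74 in endothelial and 76 in mural cells, and the shares of all genes called were 0%, 0.0628%, 0.0357%, 0.0394%, 0.0291%, 0.0499% and 0.0108% in that order. Unadjusted p under 0.05 was reached by 1, 0, 2, 0, 4, 4 and 1 members in edgeR and by 2, 0, 2, 0, 1, 2 and 0 in DESeq2, while 8.19%, 7.9%, 10.6%, 8.8%, 7.69%, 8.79% and 6.69% of all genes reached it in edgeR. The medians of the fitted log2 fold changes were 0.21, 0.02, 0.13, 0.18, 0.20, 0.23 and 0.23. Groups lay apart with DOCA-salt above Sham for 8 members in neurons (25.5% of all genes), 3 in astrocytes (21.4%), 19 in oligodendrocytes (29.9%), 9 in OPCs (23.6%), 12 in microglia (22.6%), 19 in endothelial (21.5%) and 16 in mural cells (20.6%). Below Sham they numbered 1 to 4 in each class, where the shares of all genes were 17.6%, 17.2%, 14.6%, 16.7%, 16.5%, 17.8% and 15.2%. The members' shares of groups apart were near or under those of all genes in each class.

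The members with an unadjusted p under 0.05 differed between classes and were all nominal. They were *Sdhd* in neurons, *Cox5a* and *Ndufs3* in oligodendrocytes, *Atp5d*, *Atp5g2*, *Ndufa8* and *Ndufc2* in microglia, and *Atp5d*, *Atp5g1*, *Ndufs3* and *Uqcrb* in endothelial cells. In mural cells it was *Ndufa4l2*, with 94.0 and 97.8 CPM in the DOCA-salt pools versus 56.6 and 37.0 CPM in the Sham pools (log2 fold change 1.10, SE 0.35, edgeR FDR 0.619). Its pools did not overlap between the groups. These values rest on 180 mural UMIs over the 4 libraries, from 40 and 194 nuclei in the DOCA-salt and 25 and 82 in the Sham pools.

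The DOCA-salt effect was compared between neurons and the sum of astrocytes, oligodendrocytes, OPCs and microglia by an interaction term. Of 81 members 0 differed (0.127% of 15019 genes did, by edgeR). 1 member, *Ndufv1*, had an unadjusted p under 0.05, with a difference of 0.21 in log2 fold change (SE 0.09, edgeR FDR 0.888), beside 5.29% of all genes. DESeq2 was not run on this term.

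Between the classes tested, the 81 genes took close to the same share of UMIs within a library. Relative to neurons, this share was 0.802 to 0.923 in astrocytes over the 4 libraries, 0.882 to 0.997 in oligodendrocytes and 0.895 to 0.953 in OPCs. It was 0.949 to 1.01 in microglia, 0.933 to 1.02 in endothelial and 0.912 to 1.01 in mural cells. Astrocytes were below neurons in every library. The mitochondrially encoded genes lay the other way there, at 1.53 to 1.71 times the neuronal share in astrocytes, and with these genes left out of the total the members were still at 0.833 to 0.950. Astrocytes also had fewer UMIs per nucleus than neurons in each library, and the part of depth in these ratios was not tested. Presumed glutamatergic and GABAergic neurons, gated by transporter and synthesis genes, were at 0.964 to 1.07 and 0.980 to 1.05 of all neurons. Neuronal RNA was present in every class, as given above, and its part in the ratios to neurons was not tested.

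Each class was then tested against the mean of the other classes within libraries. Of 78 members tested, 48 (61.5%) were called in no class, against 3730 of 11491 other genes (32.5%), and 4 members (5.13%) were called in 3 or more classes, against 22.4% of the others. Not tested were *Cox6b2*, *Cox7a1* and *Cox7b2*, which had too few UMIs per class. The numbers called were 11 in neurons (49% of all genes), 8 in astrocytes (36.5%), 9 in oligodendrocytes (23.6%), 10 in OPCs (14%), 1 in microglia (11.1%), 2 in endothelial (5.18%) and 3 in mural cells (12.1%), all by edgeR at FDR under 0.05. Apart from second isoforms, each called difference was at most 0.33 on the log2 scale. The calls numbered 44 over all classes, and 15 without DOCA-salt 2 (15.2% of all genes), 27 without Sham 2 (17.8%) and 5 when libraries were not kept as blocks (10.9%). Of the 44 calls themselves, 12 were also made without DOCA-salt 2, 25 without Sham 2, 30 without DOCA-salt 1 and 30 without Sham 1. The share of calls kept over all genes is not given, here or for single classes below. Such losses are therefore not shown to be particular to the members.

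Neurons were higher for 10 members (25% of all genes) and lower for 1 (23.9%). *Atp5g1* was at 256, 435, 260 and 255 CPM in neurons and 180, 278, 226 and 162 CPM in astrocytes, in the order DOCA-salt 1, DOCA-salt 2, Sham 1 and Sham 2. Neurons were the higher class in each library, and against the mean of all other classes the log2 fold change was 0.20 (SE 0.05, edgeR FDR 0.00126; FDR 0.051 without DOCA-salt 2). *Ndufs1* was at 95.1, 104, 104 and 94.8 CPM in neurons, against 74.3, 71.9, 94.5 and 69.4 CPM in OPCs and 68.9, 73.4, 67.9 and 71.6 CPM in mural cells. It rose in neurons (0.18, edgeR FDR 0.00659) and fell in OPCs (−0.29, edgeR FDR 0.0403) and mural cells (−0.33, edgeR FDR 0.0483), and each of these calls was lost without DOCA-salt 2. Also among the neuron-high members were *Ndufa4*, *Ndufa6*, *Ndufb6*, *Ndufc2*, *Cox5a*, *Cox6a2* and *Atp5f1*, with log2 fold changes of 0.12 to 0.41, so that complexes I, IV and V were each represented and II and III were not. Without DOCA-salt 2, 0 of the 11 neuronal calls were made.

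In astrocytes 3 members were higher (18.5% of all genes) and 5 lower (18%). *Ndufa4* was at 511, 821, 503 and 397 CPM in neurons and 332, 551, 385 and 295 CPM in astrocytes, lower in each library, and against all other classes it fell by 0.20 on the log2 scale (edgeR FDR 0.00519). *Cox5a* was at 143, 260, 223 and 124 CPM in astrocytes (−0.27, edgeR FDR 0.0105), and *Atp5g1* also fell (−0.21, edgeR FDR 0.0303). These 3 calls were lost without DOCA-salt 2 (FDR 0.059, 0.295 and 0.313). *Cox4i1* (0.17, edgeR FDR 0.00900), *Sdha* (0.19, FDR 0.0207) and *Uqcrfs1* (0.24, FDR 0.0498) rose. With total UMIs in place of TMM factors, however, they were at 0.01, 0.03 and 0.08. In nuclei with under 5% mitochondrial UMIs they were at −0.01, −0.02 and −0.12, in a fit without endothelial and mural cells.

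Oligodendrocytes were higher for 8 members (12.9% of all genes) and lower for 1 (10.6%). *Cox6a1*, the ubiquitous COX6A isoform, was at 158, 233, 219 and 195 CPM in oligodendrocytes and 143, 225, 194 and 161 CPM in neurons (log2 fold change against all other classes 0.32, SE 0.06, edgeR FDR 2.9e-05), and was higher than in neurons in every library. *Cox4i1* was at 591, 918, 696 and 656 CPM there (0.24, edgeR FDR 0.000131) against 528, 906, 669 and 550 CPM in neurons. The complex II membrane anchor *Sdhc* was at 128, 162, 140 and 118 CPM (0.24, edgeR FDR 0.00417). The others that rose were *Atp5j*, *Ndufa3*, *Ndufb7*, *Ndufs7* and *Uqcrh*, by 0.16 to 0.22. Without DOCA-salt 2 the calls of *Cox6a1*, *Cox4i1* and *Atp5j* were made again and the other 6 were not (FDR 0.064 for *Sdhc*), and of these 3 *Atp5j* was lost without Sham 2. In nuclei with under 5% mitochondrial UMIs *Cox6a1* was at 0.12 (FDR 0.575) and *Cox4i1* at 0.15 (FDR 0.143), without endothelial and mural cells in the fit. In OPCs all 10 calls were lower (7.27% of all genes were), led by *Ndufs1*, *Atp5e* (−0.27, edgeR FDR 0.000559) and *Uqcrh* (−0.26, edgeR FDR 0.00201), with *Atp5a1*, *Atp5j2*, *Cox4i1*, *Cox6c*, *Cox8a*, *Ndufa2* and *Ndufa3* at −0.23 to −0.14. Without DOCA-salt 2 the OPC calls of *Atp5e*, *Cox4i1*, *Ndufa2* and *Atp5a1* were made again and the other 6 were not, and of these 4 *Ndufa2* and *Atp5a1* were lost without Sham 2. *Cox4i1* was called higher in oligodendrocytes and lower in their precursors, each relative to the mean of the other classes, with all libraries and without DOCA-salt 2 or Sham 2. For *Uqcrh* and *Ndufa3* both calls were lost without DOCA-salt 2.

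**Figure D4:**
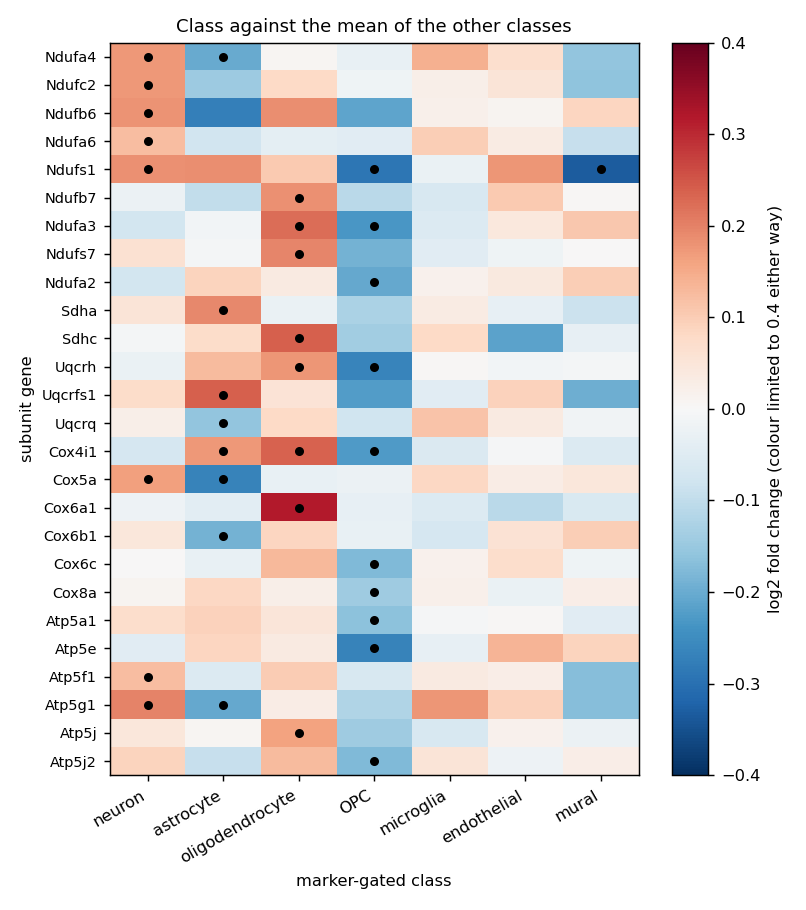
Log2 fold change of each class against the mean of the other classes for 26 members called in at least 1 class, without *Cox4i2*, *Ndufa4l2* and *Cox6a2*. Colour gives the log2 fold change (−0.33 to 0.32) and a dot an edgeR FDR under 0.05, and the OPC column holds called genes of lower level alone, while the dots of the oligodendrocyte column are all higher.

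*Cox6a2*, the COX6A isoform of heart and skeletal muscle, was the neuron-high member with the largest fitted difference (0.41, SE 0.16, edgeR FDR 0.0356; chromosome 7, 128205435 to 128206387). That difference is against the mean of the other classes, and neurons were not above each of them. Pooled over libraries, *Cox6a2* was at 11.8 CPM in neurons, 12.1 CPM in microglia and 11.8 CPM in endothelial cells. It was lower in OPCs (8.21 CPM), mural cells (6.91 CPM), astrocytes (6.46 CPM) and oligodendrocytes (5.52 CPM). In neurons *Cox6a2* was at 20.3, 7.81, 6.46 and 13.9 CPM in DOCA-salt 1, DOCA-salt 2, Sham 1 and Sham 2. Neither treatment group was uniformly high, and the order of libraries was not that of the other members. As a share of the UMIs of *Cox6a1* and *Cox6a2* in neurons it was 12.5%, 3.36%, 3.23% and 7.93%. DESeq2 did not call it (adjusted p 0.169), and leaving out any library but Sham 1 lost the call.

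The strongest class differences belonged to 2 second isoforms in the vascular classes. *Cox4i2* (chromosome 2, 152754173 to 152765037) was at 43.9, 26.1, 22.6 and 29.6 CPM in mural cells in DOCA-salt 1, DOCA-salt 2, Sham 1 and Sham 2, and at 0, 9.90, 5.49 and 2.16 CPM in endothelial cells. Every mural library was above every endothelial one. Over the 4 libraries the 69 mural UMIs gave 28.0 CPM (95% exact Poisson interval 21.8 to 35.5), against 0.556 CPM in neurons, a ratio of 50.4, and the fitted log2 fold change of mural cells against the mean of the other classes was 5.37 (SE 0.44, edgeR FDR 5.8e-14). In microglia it had 0 UMIs in all libraries. A floor of 3 counts over the pooled class is 0.882 CPM, and the mural estimate of 28.0 CPM was 31.8 times that floor. The 95% exact Poisson upper limit in microglia was 1.08 CPM. It had 1 UMI in OPCs and was 11.8-fold higher in mural cells than in astrocytes, 22.8-fold than in oligodendrocytes and 4.94-fold than in endothelial cells.

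*Ndufa4l2* (chromosome 10, 127514967 to 127517154) followed the same classes. Its mural levels were 94.0, 97.8, 56.6 and 37.0 CPM, and those of endothelial cells 7.93, 22.0, 5.49 and 8.65 CPM, again with no overlap. The 180 mural UMIs gave 73.1 CPM (62.8 to 84.6) against 1.16 CPM in neurons, a ratio of 62.9, and the fitted log2 fold change was 4.93 (SE 0.26, edgeR FDR 3.8e-21). Mural cells exceeded endothelial cells by 5.33-fold, astrocytes by 53.8-fold, oligodendrocytes by 59.6-fold, microglia by 41.5-fold and OPCs by 26.7-fold. Both mural calls held under every alternative run. Neither gene is among the markers that gated the mural nuclei, which are genes such as *Pdgfrb*, *Rgs5* and *Acta2*. Nuclei that passed both the mural and the endothelial gate and no other were counted as mural.

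Endothelial cells were called higher for both genes as well (*Cox4i2* 2.61, SE 0.76, edgeR FDR 0.0285, and *Ndufa4l2* 2.08, SE 0.42, edgeR FDR 0.00039). Both calls were lost without DOCA-salt 2 (FDR 0.739 and 0.176). Neurons and oligodendrocytes were called lower for *Ndufa4l2* (−1.92 and −1.78), calls also lost without that library, and the microglial call of *Cox4i2* rests on counts of 0. In each comparison the mural class is part of the mean that the other classes are set against.

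As a share of their isoform pairs, the second isoforms remained the lesser part. In mural cells *Cox4i2* was 6.86%, 3.02%, 3.66% and 4.83% of the UMIs of *Cox4i1* and *Cox4i2*, 3.78% pooled (95% exact Clopper-Pearson interval 2.96% to 4.76%), against 0.0789% in neurons and 0.801% in endothelial cells. *Ndufa4l2* was 20%, 12.8%, 13.0% and 9.97% of the UMIs of *Ndufa4* and *Ndufa4l2*, 12.6% pooled (10.9% to 14.4%), against 0.191% in neurons and 2.41% in endothelial cells. The longest run of bases shared by the transcripts of a pair was 14 for *Cox4i1* and *Cox4i2* and 33 for *Ndufa4* and *Ndufa4l2*.

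**Figure D5:**
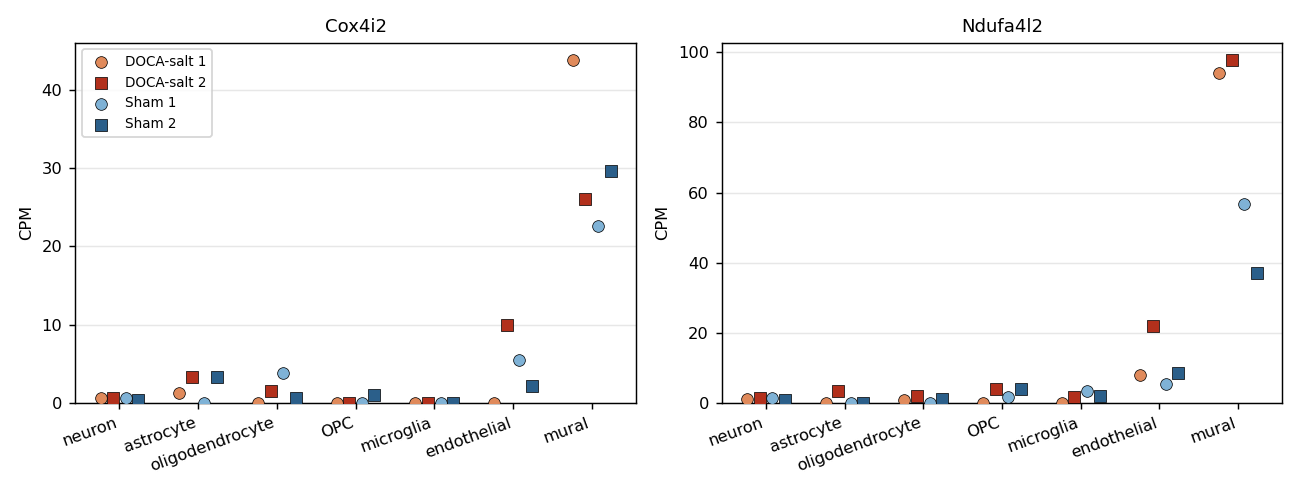
Level of *Cox4i2* and *Ndufa4l2* in CPM by marker-gated class, with 1 point per library. The mural points (22.6 to 43.9 CPM for *Cox4i2* and 37.0 to 97.8 CPM for *Ndufa4l2*) lie above those of every other class. The endothelial points of *Cox4i2* (0 to 9.90 CPM) overlap those of astrocytes.

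Other genes of energy metabolism, from lists chosen with the members, were set beside the subunits in the same fits. Between treatments in whole libraries 0 genes of any list were called by edgeR. Glycolytic genes had a median log2 fold change of 0.26, with 15 of 16 above 0, electron carriers and coupling genes 0.25, antioxidant genes 0.19, TCA cycle genes 0.11, assembly factors of the complexes 0.10 and genes of mitochondrial transcription and biogenesis 0.09, beside 0.17 for the subunits. The summed share of glycolytic genes was 0.556%, 0.817%, 0.577% and 0.511% of UMIs in DOCA-salt 1, DOCA-salt 2, Sham 1 and Sham 2, and that of assembly factors 0.179%, 0.216%, 0.191% and 0.172%. Both were highest in DOCA-salt 2, as the subunits were.

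Between classes, called genes were found in every list. In neurons 11 of 16 glycolytic genes were higher and 2 lower, 8 and 4 of 18 TCA cycle genes, 10 and 3 of 21 carriers and coupling genes, 5 and 1 of 41 assembly factors, 3 and 2 of 15 biogenesis genes, and 3 and 3 of 13 antioxidant genes, beside 25% of all genes higher and 23.9% lower. The neuronal enolase *Eno2* rose by 0.39 in neurons and the mitochondrial creatine kinase *Ckmt1* by 0.48, both on the log2 scale against the mean of the other classes, and the uncoupling protein *Ucp2* fell by 0.70. In astrocytes the brain aldolase *Aldoc* rose by 1.67, the biogenesis coactivator *Ppargc1a* by 1.30, the pyruvate carboxylase *Pcx* by 1.21 and catalase, *Cat*, by 1.21. Each of these differences was larger in size than that of any subunit called in the same class, second isoforms aside. In neurons *Suclg2* (−1.01) and *Cat* (−0.87) fell by more than *Ucp2*. Values without single libraries are not given for these genes or for the mitochondrially encoded genes below, so their calls cannot be ranked as firmer than those of subunits.

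The mitochondrially encoded partners were called apart between classes as a group: all 13 were lower in neurons (median log2 fold change −0.45) and all 13 higher in astrocytes (0.61), 11 were higher in oligodendrocytes and 12 lower in OPCs. Astrocytes had fewer UMIs per nucleus than neurons. Medians were 1231, 1080, 4670 and 2228 against 2991, 2960, 8956 and 4070 in DOCA-salt 1, DOCA-salt 2, Sham 1 and Sham 2. The mitochondrially encoded share was 7.77%, 9.62%, 6.11% and 8.13% in all nuclei under 1000 UMIs. At 4000 to 8000 UMIs it was 4.56%, 5.83%, 6.45% and 5.44%, lower except in Sham 1. Under 1000 UMIs Sham 1 had 12 nuclei, against 1978, 3603 and 925 in DOCA-salt 1, DOCA-salt 2 and Sham 2. The part of depth in the class differences was not tested. Between treatments 1 of the mitochondrially encoded genes stood out. *mt-Atp8*, which encodes a small membrane subunit of the ATP synthase, had 129 and 73.6 CPM in the DOCA-salt pools versus 327 and 466 CPM in the Sham pools over whole libraries, with no overlap (log2 fold change −2.02, unadjusted p 0.00048, edgeR FDR 0.572). Within classes it was called lower in astrocytes (−2.04, edgeR FDR 0.00054), oligodendrocytes (−2.26, FDR 0.032), OPCs (−1.68, FDR 0.028) and endothelial cells (−1.91, FDR 0.014). No nuclear-encoded subunit of the same complex was called in these fits. The short neuronal RNA *Bc1* moved with it, with 208 and 313 CPM in the DOCA-salt pools versus 2219 and 3135 CPM in the Sham pools. In whole libraries its log2 fold change was −3.39 (edgeR FDR 0.165), and it was called lower in 6 of the 7 classes, all but neurons. In neurons 0 of 15498 genes were called. A missing call there, of *Bc1* or of *mt-Atp8*, therefore does not show that neurons differed from the other classes. The part of such library-wide differences in the *mt-Atp8* values was not tested.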

How the data were processed

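Nuclei of the ARC were profiled with 10x Genomics 3′ single-nucleus RNA-seq. The authors deposited, for each of the 4 libraries, a filtered matrix of raw UMI counts per gene and barcode, and the submitters' processing notes name Cell Ranger 3.0.1 and mm10. Nuclei with over 200 and under 7000 genes, under 25000 UMIs and under 15% mitochondrial UMIs were kept, limits that follow the study. No doublet caller was run. Nuclei passing the gates of several classes were set aside, as were those passing none. The exception was nuclei passing both the mural and the endothelial gate and no other, which were kept as mural.

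A nucleus was gated into a class when at least 3 markers of the class were detected and their sum passed a limit. The summed UMIs of all markers of the class had to be 4-fold or more over the library mean, with a Poisson p under 0.0001. Neurons needed 3 neuronal markers, a marker sum at 0.75 of the library mean or more, and no weak pass of another gate (2 markers, 2-fold, p under 0.01). These thresholds were set after counts per class had been seen. UMIs were summed per library and class with at least 10 nuclei in each library, since nuclei are not replicates, and CPM is per 1000000 UMIs of the kept nuclei. Tests used edgeR 4.0.16 (quasi-likelihood, TMM, filterByExpr, Benjamini-Hochberg over all genes tested) with limma 3.58.1 in R 4.3.3, and each class comparison kept the library as a block. Each SE beside an edgeR fold change was derived as the size of the log2 fold change over the square root of the F statistic. DESeq2 1.42.0 was an alternative. Summed levels were compared by the exact two-sided permutation test in scipy 1.17.1 (Python 3.11.15, numpy 2.4.6, pandas 2.3.3). Intervals are at 95%, a count of 0 is taken to allow 3 counts, and both cover counting error only. Only the edgeR test of DOCA-salt against Sham in whole libraries was tried on simulated counts, and the gates and other fits were not.

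The members, gene lists and tests were chosen with earlier results of these data known. Genes were named by rule: core subunits and isoform pairs, the 5 members with the highest and the 5 with the lowest mean CPM, members called between treatments, up to 10 with groups apart by size of difference, and for each class the 3 largest called differences each way. Those named only as short lists of all calls, as nominal in 1 class or as holders of a motif were added after their values were seen. Genes of other pathways were named where called, with *Bc1* and *mt-Atp8*. Exons of *Ndufb2*, *Ndufb8*, *Ndufb9* and *Atp5o* overlap another gene on the same strand, so their counts are uncertain. Replicate numbers were taken as names, and no shared batch or animal is given in the labels. Same-numbered libraries deviated from their group means with a correlation of −0.28 over 15201 genes and −0.64 over the 81 members. Alternatives changed the test, scaling, filter, nucleus limits, gate, block and libraries used. The values of 1 member are not reported here, although it is counted among the members.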

Additional observations from a re-analysis of the deposited data

How the results depend on the processing

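With 2 pools per group, the treatment result depended on which library was kept. The test, scaling, filter and nucleus limits each left 0 members called between treatments in whole libraries and in every class fitted. Endothelial and mural cells were not fitted under 5% mitochondrial UMIs, where Sham 1 had 5 and 9 nuclei of them. Without DOCA-salt 1, the members called higher numbered 5 in whole libraries (1.42% of all genes), 22 in neurons (3.41%), 2 in astrocytes (0.859%), 4 in oligodendrocytes (1.38%), 1 in OPCs (0.09%), 2 in microglia (0.207%) and 6 in endothelial cells (0.687%). Without DOCA-salt 2, 2 were called lower in astrocytes (0.531%) and 1, *Ndufb4*, in oligodendrocytes (2.41%). Leaving out each library in turn, counts ranged from 0 to 5 in whole libraries, 0 to 22 in neurons, 0 to 2 in astrocytes, 0 to 4 in oligodendrocytes, 0 to 1 in OPCs, 0 to 2 in microglia and 0 to 6 in endothelial cells, and stayed at 0 in mural cells and for the neuron-glia difference. The replicate block, in which the replicate number paired a DOCA-salt with a Sham library, gave 0 calls in whole libraries and in each class.

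The log2 ratio of summed CPM ranged over those settings from −0.13 to 0.50 in whole libraries, −0.12 to 0.53 in neurons, −0.30 to 0.33 in astrocytes (−0.09 without Sham 2), −0.032 to 0.44 in oligodendrocytes, −0.17 to 0.46 in OPCs, −0.060 to 0.49 in microglia, −0.047 to 0.48 in endothelial and −0.14 to 0.46 in mural cells. For complexes I to V it ranged from −0.12 to 0.50, −0.072 to 0.34, −0.077 to 0.51, −0.22 to 0.50 and −0.11 to 0.51. Each lowest value is that without DOCA-salt 2 and each differs in sign from the value with all libraries. The cause was not tested.

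Between classes there were 44 calls (25 higher, 19 lower), where 5.18% to 49% of all genes were called, depending on the class. The calls became 53 with DESeq2 (share of all genes not given) and 93 without TMM factors (48 higher, 45 lower, and 24.9% of all genes). They numbered 14 in nuclei with under 5% mitochondrial UMIs (10.3%), 5 with no library block (10.9%), 15 without DOCA-salt 2 (15.2%) and 27 without Sham 2 (17.8%). The range was 15 to 39 on leaving out each library. At under 5% mitochondrial UMIs *Uqcrfs1* (−0.12), *Sdha* (−0.020) and *Cox4i1* (−0.011) changed sign in astrocytes. Fewer nuclei were left there, and endothelial and mural cells were no longer part of the mean compared against. Of 23 named class calls, 21 lost the call under at least 1 alternative, and the exceptions were *Cox4i2* and *Ndufa4l2* in mural cells. Not run for want of nuclei were astrocytes under the stricter gate and endothelial and mural cells under 5% mitochondrial UMIs. In those fits the mean of the other classes left these classes out, so the counts of calls are for unlike comparisons. Depth limits *Cox4i2* in endothelial cells, astrocytes, oligodendrocytes, OPCs and microglia, where libraries of 0 UMIs occur.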
